A study of Homo sapiens with 9 samples.

Results

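The 10 genes described here encode the enzymes that make serine from glucose and pass its carbon on to folate: PHGDH, PSAT1, PSPH, SHMT1, SHMT2, MTHFD1, MTHFD2, MTHFD1L, MTHFD2L and ALDH1L2. They were taken by symbol from the 23368 rows of the count table, and all 10 were present and among the 13648 genes that passed the filter on low counts. The data are RNA sequencing counts from A673, an established cell line from Ewing sarcoma, a tumour of bone and soft tissue in young people. Cells were transfected with 13 nM of a scrambled siRNA, of siLRWD1-5 or of siLRWD1-6, the latter pair both directed at LRWD1, whose protein (also called ORCA) binds the origin recognition complex at sites where DNA replication starts. RNA was taken after 48 h in 3 separate experiments, which gave 9 libraries in 3 groups of 3. All groups, scrambled included, carried the transfection reagent and grew in high glucose DMEM with tetracycline-free serum and the selection drugs Zeocin and blasticidin, and the labels name no untransfected cells.

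Serine is made in the cytosol from the glycolytic intermediate 3-phosphoglycerate. PHGDH oxidises it, PSAT1 adds the amino group from glutamate, and PSPH removes the phosphate. Serine hydroxymethyltransferase then moves a carbon from serine to tetrahydrofolate, giving glycine, and exists as a cytosolic enzyme (SHMT1) and a mitochondrial one (SHMT2). In the cytosol the trifunctional enzyme MTHFD1 interconverts the folate-bound carbon forms, which feed purine and thymidylate synthesis. In mitochondria the same steps are divided between the dehydrogenases MTHFD2 and MTHFD2L and the formate-releasing synthetase MTHFD1L. A separate mitochondrial enzyme, ALDH1L2, burns the carbon to carbon dioxide while making NADPH. In many proliferating cells the mitochondrial arm supplies formate to the cytosolic one, and MTHFD2 is known as an enzyme of embryos and tumours that is low in most adult tissues. The transcription factor ATF4 is a known activator of the serine synthesis genes and of several mitochondrial folate genes in the amino acid response.

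The start regions of 4 members are shown because they lie upstream of genes that behaved differently across the siRNAs: MTHFD1L, which fell with siLRWD1-5 and rose with siLRWD1-6, MTHFD1, which fell with siLRWD1-5, and MTHFD2 and PSAT1, which rose with siLRWD1-6. Each is the RefSeq window (GRCh38.p14) from 250 bases before to 50 bases after the annotated start, 300 bases 5′ to 3′ on the plus strand. Capitals mark matches, on either strand, to the 3 motifs searched: TGATGNAA, the C/EBP-ATF response element, CACGTG, the E-box, and TGACNNNGC, the core of the antioxidant response element.
MTHFD1L chr6:150866236-150866535: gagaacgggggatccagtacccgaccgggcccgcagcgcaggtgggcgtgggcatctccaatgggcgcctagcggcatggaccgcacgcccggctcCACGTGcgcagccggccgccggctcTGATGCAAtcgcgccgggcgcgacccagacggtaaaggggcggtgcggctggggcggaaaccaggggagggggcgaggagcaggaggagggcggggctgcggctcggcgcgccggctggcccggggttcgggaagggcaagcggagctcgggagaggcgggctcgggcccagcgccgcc
MTHFD1 chr14:64388103-64388402: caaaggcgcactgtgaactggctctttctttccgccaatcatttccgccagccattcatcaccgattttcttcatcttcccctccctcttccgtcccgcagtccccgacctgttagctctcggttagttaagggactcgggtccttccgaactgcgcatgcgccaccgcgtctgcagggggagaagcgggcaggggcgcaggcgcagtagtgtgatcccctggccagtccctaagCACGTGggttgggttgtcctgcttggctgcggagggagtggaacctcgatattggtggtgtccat
MTHFD2 chr2:74198365-74198664: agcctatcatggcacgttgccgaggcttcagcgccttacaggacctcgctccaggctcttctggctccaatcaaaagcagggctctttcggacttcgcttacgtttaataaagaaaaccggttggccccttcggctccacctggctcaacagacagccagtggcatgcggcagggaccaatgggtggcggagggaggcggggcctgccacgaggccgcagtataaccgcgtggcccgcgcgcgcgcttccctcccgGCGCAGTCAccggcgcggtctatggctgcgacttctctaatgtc
PSAT1 chr9:78296875-78297174: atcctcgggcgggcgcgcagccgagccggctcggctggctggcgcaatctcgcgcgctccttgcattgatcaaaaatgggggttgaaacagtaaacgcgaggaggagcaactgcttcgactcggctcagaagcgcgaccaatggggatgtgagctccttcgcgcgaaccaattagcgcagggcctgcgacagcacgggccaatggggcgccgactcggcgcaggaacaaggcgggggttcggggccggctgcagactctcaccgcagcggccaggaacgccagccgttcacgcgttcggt

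In the MTHFD1L window the E-box CACGTG starts at position 97 and the element TGATGCAA at position 122, 25 bases further on, counting from 1 at the 5′ end. MTHFD1L has 4 windows in the RefSeq table, and the 3 that overlap here share this pair of matches. The MTHFD1 window holds an E-box at position 236, 15 bases upstream of the start. In MTHFD2 the only match is GCGCAGTCA at position 257, just downstream of the start, which is the antioxidant response core on the opposite strand. The PSAT1 window held none of the 3 motifs in these letters. Over the 11 windows found for 7 members, TGATGNAA was present in windows of 1 member, CACGTG in those of 2 (MTHFD1L and MTHFD1) and TGACNNNGC in those of 2 (MTHFD2 and MTHFD2L). Among all 35116 windows of the same length, 3.62% held TGATGNAA, 7.26% held CACGTG and 13.3% held TGACNNNGC. These matches describe letters in a window and were not compared with any binding data.

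Total counts per library ranged from 11971179 to 15674452. Levels below are CPM scaled by TMM (the count relative to the library total), which adjusts for differences in library composition. LRWD1 was 49.1, 54.6 and 49.3 CPM in the scrambled libraries, 10.6, 11.3 and 10.4 with siLRWD1-5, and 6.55, 8.11 and 8.55 with siLRWD1-6, so 21.1% and 15.1% of the scrambled level was left. The difference in LRWD1 between the siRNAs also passed the threshold (log2 fold change -0.48, SE 0.12, edgeR adjusted p = 0.0058), and its part in the differences below was not tested. The scrambled library numbered 2 stood apart from the other scrambled libraries, with a chi-square per gene of 30.03 and 25.64 against 3.09 to 5.71 for the other 7 pairs of replicates, and the members' counts are also given without it. Of 8 Ewing sarcoma markers, 7 were measured above the filter, with PRKCB between 108.0 and 210.1 CPM, whereas CD99 had no counts in 8 of the 9 libraries. CCK, among the 7, was barely measured, with means of 0.885 CPM in scrambled, 0.442 with siLRWD1-5 and 0.728 with siLRWD1-6. None of 10 markers of blood, endothelial, epithelial and liver cells passed the filter or exceeded 1.01 CPM in any library. These are bulk libraries, in which fewer cells of a type and less RNA per cell cannot be told apart.

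Levels of different genes were compared only after division by exon length. In the scrambled cells PHGDH reached 82.1 ± 20.1 CPM per kb of exon (SD, n = 3) and SHMT2 78.8 ± 4.73, and their ranges overlapped. PSAT1 (40.8 ± 8.46), MTHFD1 (38.5 ± 5.26) and MTHFD2 (32.0 ± 1.8) came next, again with overlapping ranges. MTHFD1L (18.4 ± 1.16) and SHMT1 (16.6 ± 3.63) formed the following overlapping pair, and PSPH stood below them at 10.6 ± 0.567. MTHFD2L (1.16 ± 0.121) and ALDH1L2 (0.219 ± 0.0733) were far lower than the rest and did not overlap each other. SHMT2 was therefore the leading serine hydroxymethyltransferase and MTHFD2 the leading mitochondrial dehydrogenase at the RNA level. With the length of the longest coding transcript in place of merged exons, SHMT2 came before PHGDH in the scrambled cells, and no other rank changed in any of the 3 groups. These lengths are nearly equal for MTHFD1 (6908 merged and 6814 bases) and equal for MTHFD2 (4456) and PSAT1 (2188). The check could therefore hardly move their ranks. Which transcripts the cells used was not determined, so ranks and ratio levels between genes hold for these lengths only.

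With siLRWD1-6 the order of the middle ranks changed. MTHFD2 at 62.3 ± 5.73 CPM per kb stood above MTHFD1 at 32.6 ± 1.79, with no overlap of the libraries, whereas in scrambled cells the ranges of these genes overlapped. PSPH at 18.5 ± 0.563 likewise stood above SHMT1 at 15.9 ± 1.14, after being below it in the scrambled cells without overlap. PHGDH was 131.5 ± 9.67, SHMT2 108.7 ± 2.87 and PSAT1 89.2 ± 8.79, and these leading members did not overlap one another. With siLRWD1-5 the ranks differed from scrambled only by exchanges of neighbours: SHMT2 (80.2 ± 1.6) above PHGDH (70.5 ± 7.41) and SHMT1 (15.9 ± 0.787) above MTHFD1L (14.9 ± 1.4), the second pair overlapping.

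**Figure D1:**
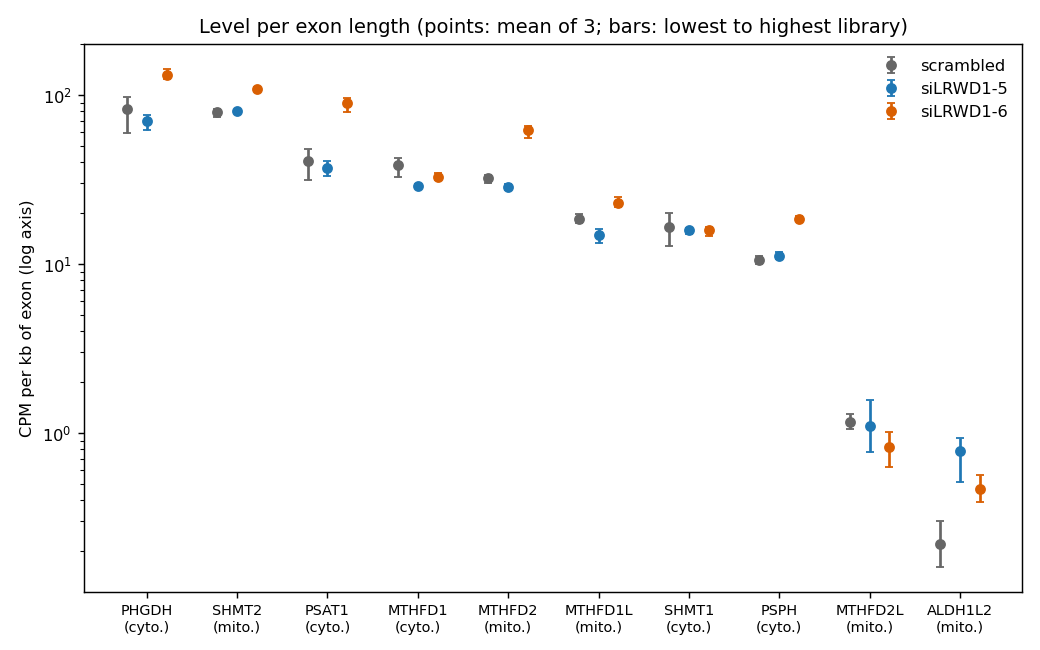
Level of the 10 enzymes per exon length (CPM per kb, log axis) in the scrambled, siLRWD1-5 and siLRWD1-6 cells; points are means of 3 libraries, bars run from the lowest to the highest library, and each name gives the compartment of its enzyme. PHGDH and SHMT2 lead in all groups, MTHFD2L and ALDH1L2 lie lowest, and the siLRWD1-6 points stand above the others for PSAT1, MTHFD2 and PSPH.

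The comparisons ask how each siRNA against LRWD1 changed these transcripts from the scrambled cells and how the siRNAs differed from each other. Both comparisons with scrambled use the same 3 scrambled libraries. The members, and the lists further below, were chosen with earlier results of these data known. The shares of all genes printed beside their counts are therefore descriptive and no test of enrichment. With siLRWD1-6, 7 of the 10 members rose (adjusted p under 0.05 in edgeR's quasi-likelihood test, adjusted over all genes tested), where 8.81% of all genes tested were called higher. These were the whole serine synthesis branch (PHGDH, PSAT1, PSPH) and 4 mitochondrial enzymes (SHMT2, MTHFD2, MTHFD1L, ALDH1L2). None was called lower, where 7.78% of all genes were, and the count of lower members at an unadjusted p under 0.05 was 1 (MTHFD1), with 0 called by DESeq2 or limma-voom. The median log2 fold change of the members was 0.57 (0.47 without scrambled replicate 2), against -0.02 over all genes tested. Every siLRWD1-6 library was above every scrambled library for 7 members, a separation that 16.4% of all genes showed, and below for 1, which 17.3% of genes showed. Without scrambled replicate 2 the count was again 7 higher, and 1 member (MTHFD1) was called lower, where 2115 and 1838 of 13868 genes tested were. With the replicate number as a block it was also 7 higher and 1 lower (MTHFD1), where 1472 and 1343 of all genes were. Without siLRWD1-6 replicate 1 or replicate 2 the higher count was 4, since PHGDH, MTHFD1L and ALDH1L2 then missed the threshold. The number of all genes called higher also fell there, from 1203 to 702 and 763.

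With siLRWD1-5, 1 member rose (ALDH1L2), where 18.5% of all genes tested were called higher, and 2 fell (MTHFD1 and MTHFD1L), where 20.3% were called lower. The median log2 fold change of the members was -0.12 (-0.22 without scrambled replicate 2), against -0.01 over all genes. Libraries separated upward for 1 member (23.2% of all genes) and downward for 3 (24.6% of all genes), so the share of members that moved was near that of all genes upward and downward. The downward count depends on scrambled replicate 2. Without it 6 members were called lower, where 3464 of 13868 genes tested were, as PHGDH, PSAT1, SHMT1 and MTHFD2 joined with log2 fold changes of -0.41, -0.30, -0.23 and -0.21. In that library the log2 level of PHGDH differed by -0.66 from the mean of the other scrambled libraries, with -0.62 for ALDH1L2, -0.54 for PSAT1, -0.53 for SHMT1 and -0.35 for MTHFD1, and between -0.15 and -0.04 for the other 5 members. Leaving out scrambled replicate 3 or siLRWD1-5 replicate 3 brought the count of lower members to 1. The number of all genes called lower also fell there, from 2765 to 2434 and 2249.

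The difference between the siRNAs was tested directly. In siLRWD1-6 against siLRWD1-5, 6 members were higher, where 22.4% of all genes tested were, and 1 was lower (ALDH1L2), where 20.9% were. The 6 were PHGDH, PSAT1, PSPH, SHMT2, MTHFD2 and MTHFD1L, and the median log2 difference over the members was 0.53 against -0.01 over all genes. Libraries separated upward for 7 members (30.7% of all genes) and downward for 0 (30.3% of all genes). The higher count was 7 without scrambled replicate 2, as MTHFD1 joined, where 3954 of 13868 genes tested were higher. With 1 siRNA on each side, an action of an siRNA on other targets and its action on LRWD1 cannot be told apart.

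**Figure D2:**
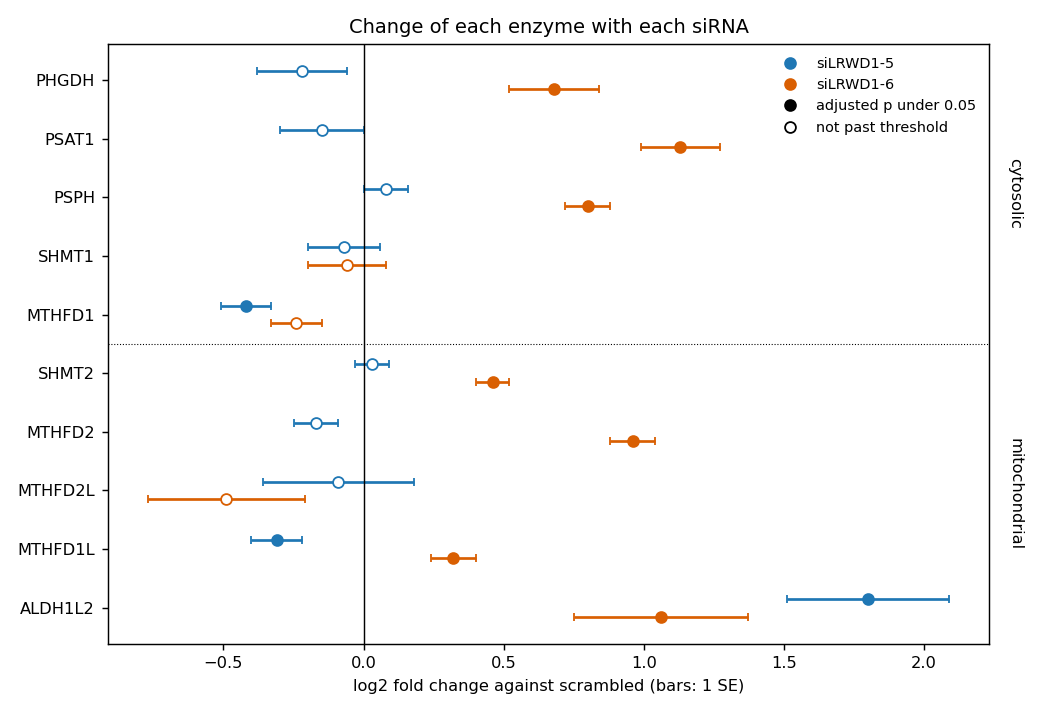
Log2 fold change of each enzyme against scrambled with siLRWD1-5 (blue) and siLRWD1-6 (orange), cytosolic enzymes above the dotted line and mitochondrial ones below; bars are 1 SE, filled points passed an adjusted p under 0.05. Filled orange points lie to the right for 7 enzymes, from MTHFD1L at 0.32 to PSAT1 at 1.13, while filled blue points are MTHFD1 at -0.42, MTHFD1L at -0.31 and ALDH1L2 at 1.8.

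Among the serine synthesis enzymes, PHGDH, which commits 3-phosphoglycerate to the pathway, was 258.6, 157.8 and 238.9 CPM in the scrambled libraries, 203.6, 165.5 and 193.7 with siLRWD1-5, and 379.3, 340.4 and 330.7 with siLRWD1-6. All siLRWD1-6 libraries were above all others, and the siLRWD1-5 and scrambled libraries overlapped. PHGDH was 1.60-fold higher with siLRWD1-6 than with scrambled (log2 fold change 0.68, SE 0.16, edgeR adjusted p = 0.022), and 0.90 higher on the log2 scale than with siLRWD1-5 (SE 0.17, edgeR adjusted p = 0.0021). Against scrambled the call was lost without siLRWD1-6 replicate 1 (0.62) or replicate 2 (0.70), with a highest adjusted p of 0.082. Without scrambled replicate 2 PHGDH was still called, at a lower value of 0.50. With siLRWD1-5 the log2 fold change was -0.22 (SE 0.16, edgeR adjusted p = 0.33).

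PSAT1, the aminotransferase of the pathway, was 94.8, 68.6 and 104.4 CPM in scrambled, 89.0, 73.0 and 79.8 with siLRWD1-5, and 210.6, 201.1 and 173.6 with siLRWD1-6. The lowest siLRWD1-6 library was well above the highest of the other 6. PSAT1 rose 2.18-fold with siLRWD1-6 (log2 fold change 1.13, SE 0.14, edgeR adjusted p = 0.00078). It was called in all 18 alternative analyses, with log2 values from 0.96 to 1.25. With siLRWD1-5 the value was -0.15 (SE 0.15, edgeR adjusted p = 0.46).

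PSPH, the phosphatase of the last step, was 24.1, 21.7 and 23.4 CPM in scrambled, 25.5, 24.1 and 23.4 with siLRWD1-5, and 41.7, 39.8 and 39.5 with siLRWD1-6. Its replicates lay close together in every group, and the siLRWD1-6 libraries stood apart from the rest. The rise with siLRWD1-6 was 1.75-fold (log2 fold change 0.80, SE 0.08, edgeR adjusted p = 5.3e-05), and the siLRWD1-5 value was 0.08 (SE 0.08, edgeR adjusted p = 0.48). Summed per exon length, the 3 serine synthesis genes stood at 133.4 ± 28.5 CPM per kb in scrambled, 118.5 ± 11.2 with siLRWD1-5 and 239.2 ± 18.1 with siLRWD1-6 (SD, n = 3 each).

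Neither cytosolic folate enzyme was called higher with either siRNA. SHMT1, the cytosolic serine hydroxymethyltransferase, was 56.4, 36.1 and 47.9 CPM in scrambled, 45.7, 42.1 and 46.2 with siLRWD1-5, and 46.9, 41.2 and 46.6 with siLRWD1-6. The 3 groups overlapped, and the spread among the scrambled libraries exceeded the difference between any group means. Its log2 fold changes were -0.07 (SE 0.13, edgeR adjusted p = 0.71) with siLRWD1-5 and -0.06 (SE 0.14, edgeR adjusted p = 0.80) with siLRWD1-6. Their sign turned to 0.09 and 0.10 without scrambled replicate 1.

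MTHFD1, the trifunctional enzyme that also makes formyl-folate for purines, was 280.2, 224.2 and 292.4 CPM in scrambled, 206.0, 193.5 and 195.6 with siLRWD1-5, and 215.9, 220.0 and 239.0 with siLRWD1-6. All siLRWD1-5 libraries were below all scrambled ones. MTHFD1 fell with siLRWD1-5, to 1.34-fold lower (log2 fold change -0.42, SE 0.09, edgeR adjusted p = 0.0034), in all 18 alternatives. With siLRWD1-6 the value was -0.24 (SE 0.09, edgeR adjusted p = 0.094), and scrambled replicate 2 lay inside the siLRWD1-6 range. Without that library the siLRWD1-6 value was -0.34 and passed the threshold. It also passed with the replicate number as a block and with replicates 1 and 3 only. Between siLRWD1-6 and scrambled libraries of the same number the log2 differences were -0.38, -0.03 and -0.29. The siRNAs differed by 0.18 (SE 0.09, edgeR adjusted p = 0.13), although every siLRWD1-6 library was above every siLRWD1-5 library, and this difference passed the threshold in 3 of the 18 alternatives, among them that without scrambled replicate 2. The sum of SHMT1 and MTHFD1 was 55.1 ± 8.51 CPM per kb in scrambled, 44.6 ± 1.54 with siLRWD1-5 and 48.5 ± 2.4 with siLRWD1-6.

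Of the mitochondrial enzymes, SHMT2, which starts the mitochondrial branch, was 242.4, 222.9 and 250.8 CPM in scrambled, 247.8, 238.1 and 242.7 with siLRWD1-5, and 332.2, 336.1 and 319.4 with siLRWD1-6. The siLRWD1-5 libraries lay within the scrambled range and the siLRWD1-6 libraries wholly above it. SHMT2 rose 1.38-fold with siLRWD1-6 (log2 fold change 0.46, SE 0.06, edgeR adjusted p = 0.00035), and its siLRWD1-5 value was 0.03 (SE 0.06, edgeR adjusted p = 0.76).

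MTHFD2, the mitochondrial dehydrogenase and cyclohydrolase, was 143.6, 134.0 and 150.0 CPM in scrambled, 131.7, 127.8 and 121.4 with siLRWD1-5, and 292.1, 292.5 and 248.1 with siLRWD1-6. The groups did not overlap at all, with siLRWD1-5 lowest and siLRWD1-6 highest. MTHFD2 rose 1.95-fold with siLRWD1-6 (log2 fold change 0.96, SE 0.08, edgeR adjusted p = 1.4e-05). With siLRWD1-5 the log2 fold change was -0.17 (SE 0.08, edgeR adjusted p = 0.11), and without scrambled replicate 2 it passed the threshold at -0.21. Between the siRNAs it differed by 1.13 (SE 0.08, edgeR adjusted p = 8.8e-07). The annotation lists 7 pseudogenes named after MTHFD2 and 4 after PSAT1, none with a row in the count table, so reads shared with these copies could have been lost from these genes.

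MTHFD2L, the paralog of MTHFD2, was 3.29, 3.48 and 4.01 CPM in scrambled, 2.39, 4.89 and 2.84 with siLRWD1-5, and 1.95, 2.63 and 3.13 with siLRWD1-6. These levels rest on 28 to 66 reads per library. All siLRWD1-6 libraries were below all scrambled ones, and siLRWD1-5 spanned both groups. The log2 fold change was -0.49 with siLRWD1-6 (SE 0.28, edgeR adjusted p = 0.27) and -0.09 with siLRWD1-5 (SE 0.27, edgeR adjusted p = 0.81), so no change was detectable at this depth.

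MTHFD1L, the synthetase that releases formate from mitochondria, moved in opposite directions with the siRNAs. It was 66.6, 69.0 and 75.2 CPM in scrambled, 58.5, 61.1 and 50.8 with siLRWD1-5, and 83.3, 94.4 and 85.1 with siLRWD1-6, and no group overlapped another. It fell with siLRWD1-5 (log2 fold change -0.31, SE 0.09, edgeR adjusted p = 0.015) and rose with siLRWD1-6 (0.32, SE 0.08, edgeR adjusted p = 0.024). The difference between the siRNAs was 0.62 (SE 0.08, edgeR adjusted p = 0.00014) and held in all 18 alternatives. Against scrambled the calls were less firm. The fall was lost without scrambled replicate 3 (-0.26) or siLRWD1-5 replicate 3 (-0.23), and the rise without scrambled replicate 1 (0.28), siLRWD1-6 replicate 1 (0.35) or siLRWD1-6 replicate 2 (0.26).

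ALDH1L2, which oxidises formyl-folate in mitochondria, was the member that rose with each siRNA, from a low level. It was 2.27, 1.22 and 1.47 CPM in scrambled, from 15 to 36 reads, 6.99, 3.85 and 6.74 with siLRWD1-5, and 4.25, 2.92 and 3.39 with siLRWD1-6. The scrambled libraries were below all others, and the siRNA groups overlapped. The rise was 3.48-fold with siLRWD1-5 (log2 fold change 1.8, SE 0.29, edgeR adjusted p = 0.00061), called in all 18 alternatives. With siLRWD1-6 it was 2.09-fold (log2 fold change 1.06, SE 0.31, edgeR adjusted p = 0.037), and this call was lost in limma-voom and without scrambled replicate 3, siLRWD1-5 replicate 3 or any 1 siLRWD1-6 replicate, with values from 0.90 to 1.39 over all alternatives. The difference between the siRNAs was -0.73 (SE 0.27, edgeR adjusted p = 0.045). That call was lost in limma-voom and without scrambled replicate 3, siLRWD1-5 replicate 1 or 3, or siLRWD1-6 replicate 2 or 3. The 5 mitochondrial folate genes summed to 130.5 ± 7.32 CPM per kb in scrambled, 125.4 ± 2.93 with siLRWD1-5 and 195.2 ± 9.21 with siLRWD1-6.

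**Figure D3:**
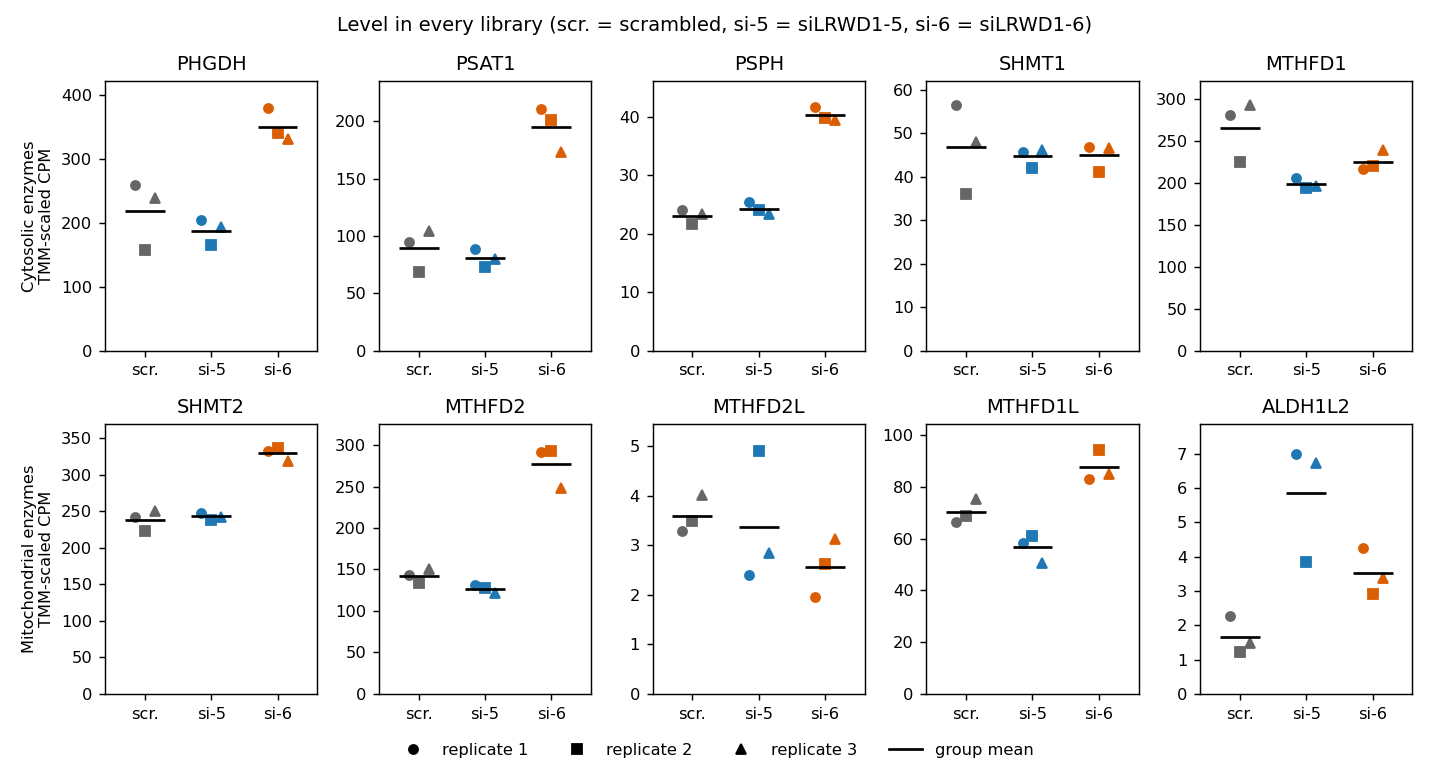
Level of each enzyme (TMM-scaled CPM, each panel from 0 on its own axis) in the 9 libraries; colours are siRNA groups, symbols the experiment number, and lines group means, with cytosolic enzymes in the upper row and mitochondrial ones in the lower. The siLRWD1-6 libraries stand clear of the other groups for PHGDH, PSAT1, PSPH, SHMT2, MTHFD2 and MTHFD1L. Scrambled replicate 2 is the lowest scrambled library for every member but MTHFD2L and MTHFD1L.

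The library kit does not mark strand, and a gene in the count table overlaps on the opposite strand at SHMT1 (SMCR8), MTHFD1 (ZBTB25), SHMT2 (NDUFA4L2), MTHFD2 (SLC4A5) and ALDH1L2 (C12orf45), so reads in the stretches these pairs share cannot be told apart.

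Ratios between related enzymes within a library do not depend on how libraries are scaled. Per exon length the log2 ratio of SHMT2 to SHMT1 was 2.00, 2.52 and 2.28 in the scrambled libraries, 2.33, 2.39 and 2.29 with siLRWD1-5, and 2.72, 2.92 and 2.67 with siLRWD1-6. The siLRWD1-6 libraries were above all others, by 0.50 on the log2 scale over the scrambled mean and 0.43 over siLRWD1-5. The MTHFD2 to MTHFD1 ratio was -0.33, -0.11 and -0.33 in scrambled, -0.01, 0.03 and -0.05 with siLRWD1-5, and 1.07, 1.04 and 0.69 with siLRWD1-6. Here no group overlapped another: the mean log2 ratio went from -0.26 ± 0.13 to -0.01 ± 0.04 and to 0.93 ± 0.21 (SD, n = 3). The step with siLRWD1-5 came with the fall of MTHFD1 (-0.42), beside -0.17 for MTHFD2. With siLRWD1-6 MTHFD2 rose (0.96), beside -0.24 for MTHFD1. Neither of these lesser values passed the threshold.

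The MTHFD1L to MTHFD1 log2 ratio was -1.06 ± 0.19 in scrambled, -0.95 ± 0.14 with siLRWD1-5 and -0.51 ± 0.14 with siLRWD1-6, where all libraries were above the other groups. The MTHFD2 to MTHFD2L log2 ratio was 4.79 ± 0.12, 4.78 ± 0.55 and 6.26 ± 0.46 in that order, and the siLRWD1-6 libraries again stood above the rest. As groups, the 5 cytosolic members had a mean log2 fold change of 0.46 with siLRWD1-6 and the 5 mitochondrial members also 0.46. Within the cytosolic set the 3 members called higher were the serine synthesis genes. The means were 0.34 and 0.42 without scrambled replicate 2. With siLRWD1-5 the means were -0.16 for the cytosolic members and 0.25 for the mitochondrial ones, while the medians were -0.15 and -0.09, and the highest mitochondrial value was that of ALDH1L2 (1.8). Without scrambled replicate 2 the cytosolic mean was -0.29 and the median -0.30, with 4 cytosolic members called lower in place of 1, and the mitochondrial values were 0.19 and -0.12, with 2 called lower in place of 1.

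**Figure D4:**
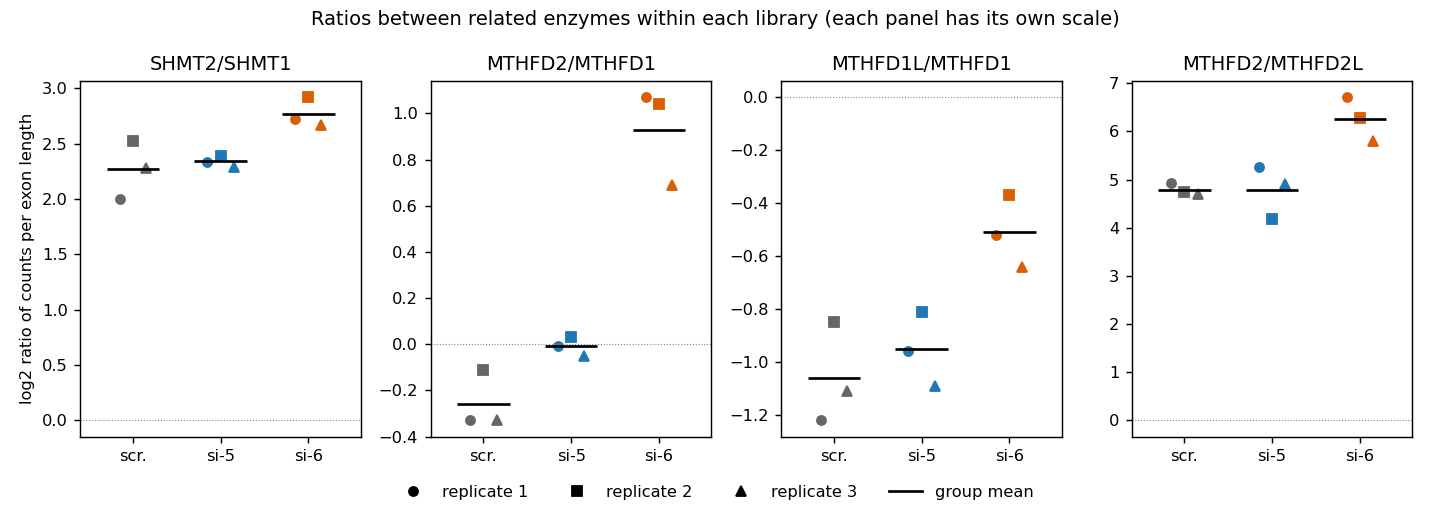
Log2 ratio of counts per exon length between related enzymes in each of the 9 libraries (each panel on its own scale; dotted line, equal levels; line, group mean). The siLRWD1-6 libraries lie above both other groups in all 4 panels, and the MTHFD2/MTHFD1 ratio moves from a mean of -0.26 in scrambled to 0.93.

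The members' courses over the 9 libraries were also compared with each other, as a description, since libraries of a group share their siRNA. The centred log2 level of SHMT2 had a Pearson r of 0.97 with the mean of the other members, PSAT1 0.96, PSPH 0.95, PHGDH 0.94, MTHFD2 0.89 and MTHFD1L 0.68. SHMT1 (0.22), MTHFD1 (-0.01), ALDH1L2 (-0.09) and MTHFD2L (-0.65) did not follow that course. Of 10890 other genes with a mean of at least 5 CPM, those most like the mean course of the 10 members included HMGCS1 (r = 0.991), JDP2 (0.987), YOD1 (0.984) and ZAK (0.983). HMGCS1 encodes an early enzyme of cholesterol synthesis and averaged 178.4 ± 51.7 CPM in scrambled, 183.4 ± 19.4 with siLRWD1-5 and 360.2 ± 6.25 with siLRWD1-6 (SD, n = 3).

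The rest of one-carbon metabolism was taken from 4 lists of 50 genes in all, of which 42 were tested. With siLRWD1-6, 7 of the 42 were higher and 2 lower, where 8.81% and 7.78% of all genes tested were. With siLRWD1-5, 2 were higher and 13 lower, where 18.5% and 20.3% of all genes were. Between the siRNAs 18 were higher and 4 lower in siLRWD1-6, where 22.4% and 20.9% of all genes were. The median log2 fold changes were -0.02 with siLRWD1-6 and -0.17 with siLRWD1-5, against -0.02 and -0.01 over all genes. Without scrambled replicate 2 these counts were 9 higher and 6 lower with siLRWD1-6, 3 higher and 18 lower with siLRWD1-5, and 20 higher and 4 lower between the siRNAs. Of 13868 genes tested in that setting, 2115 were higher and 1838 lower with siLRWD1-6, and 3326 and 3464 with siLRWD1-5. Between the siRNAs 3954 of them were higher and 3597 lower.

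Genes of serine and glycine transport and breakdown (12 of 16 tested) gave 4 higher and 0 lower with siLRWD1-6, where 8.81% and 7.78% of all genes tested were. With siLRWD1-5 the list gave 0 higher and 4 lower, where 18.5% and 20.3% of all genes were. Each 4 became 5 without scrambled replicate 2, where 2115 of 13868 genes tested were higher with siLRWD1-6 and 3464 lower with siLRWD1-5. At an unadjusted p under 0.05 there were 0 lower with siLRWD1-6 and 1 higher with siLRWD1-5 (GCAT), and DESeq2 and limma-voom gave 0 for each. SFXN1, the carrier that brings serine into mitochondria, was 134.1, 120.3 and 134.2 CPM in scrambled, 86.3, 86.0 and 83.6 with siLRWD1-5, and 170.7, 180.2 and 168.9 with siLRWD1-6. No group overlapped another, and SFXN1 fell with siLRWD1-5 (log2 fold change -0.60, edgeR adjusted p = 2.5e-05) and rose with siLRWD1-6 (0.42, edgeR adjusted p = 0.00095). With siLRWD1-6 the plasma membrane amino acid carriers SLC1A5 (0.62), SLC1A4 (0.71) and the glycine carrier SLC6A9 (1.21) rose too. With siLRWD1-5, SFXN3 (-1.04), a relative of SFXN1, SARDH (-1.06), the sarcosine dehydrogenase, and DLD (-0.43), a subunit shared by the glycine cleavage system, fell. Between the siRNAs 7 genes of this list were higher and 0 lower in siLRWD1-6, where 22.4% and 20.9% of all genes tested were. The lower count was also 0 at an unadjusted p under 0.05 and by DESeq2 and limma-voom. SFXN1 was 2.03-fold higher in siLRWD1-6 (edgeR adjusted p = 4.1e-07).

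Genes of folate uptake, reduction and thymidylate synthesis (14 of 16 tested) gave 2 higher and 3 lower with siLRWD1-5. These counts were near the shares of all genes tested, 18.5% higher and 20.3% lower. Without scrambled replicate 2 the list gave 3 higher and 4 lower, where 3326 and 3464 of 13868 genes tested were. The list genes called with siLRWD1-5 included the reduced folate carrier SLC19A1 (0.42), thymidylate synthase TYMS (-0.62) and MTHFSD (-0.67). With siLRWD1-6, 1 was higher and 0 were lower by edgeR, DESeq2 and limma-voom, where edgeR called 8.81% of all genes tested higher and 7.78% lower. At an unadjusted p under 0.05, 1 was lower (ALDH1L1). The gene called higher was MTFMT (0.43), which formylates the mitochondrial initiator tRNA. MTFMT was not called in 6 of the 18 alternatives, among them those without scrambled replicate 1 or 3 or any 1 siLRWD1-6 replicate (0.32 to 0.46). Without scrambled replicate 2 the folate list gave 2 higher and 3 lower with siLRWD1-6, where 2115 and 1838 of 13868 genes tested were. Between the siRNAs 3 were higher and 3 lower in siLRWD1-6, where 22.4% and 20.9% of all genes tested were. The lower count was 1 without siLRWD1-5 replicate 1 or siLRWD1-6 replicate 2 or 3. There 2320, 2257 and 2239 of all genes were lower, against 2856 with all 9 libraries. The mitochondrial folate carrier SLC25A32 was higher in siLRWD1-6 (0.52, edgeR adjusted p = 0.0046).

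In the methionine cycle and transsulfuration list (10 of 12 tested), 2 rose with siLRWD1-6, CTH (0.78, edgeR adjusted p = 0.00036) and CBS (0.56, edgeR adjusted p = 0.012), which are the enzymes that lead from homocysteine to cysteine using serine. AHCYL2 fell (-0.37). CBS missed the threshold without siLRWD1-6 replicate 1 (0.54), and AHCYL2 without siLRWD1-6 replicate 2 (-0.37) or 3 (-0.30). With siLRWD1-5, where 18.5% of all genes tested were higher and 20.3% lower, none of this list rose. None rose at an unadjusted p under 0.05 or by DESeq2 and limma-voom either. The 3 that fell were MTAP (-0.55), AHCYL1 (-0.38) and MAT2A (-0.20). The number that fell was 7 without scrambled replicate 2, where 3464 of 13868 genes tested fell. MAT2A missed the threshold in 3 of the 18 alternatives, among them those without siLRWD1-5 replicate 1 (-0.20) or 3 (-0.17). Of the 6 purine synthesis genes, 3 fell with siLRWD1-5 and 1 with siLRWD1-6, where 20.3% and 7.78% of all genes tested fell. None rose with either siRNA by edgeR, DESeq2, limma-voom or an unadjusted p under 0.05, where edgeR called 18.5% and 8.81% of all genes higher. The gene in common was ATIC, which uses formyl-folate for the last ring closure of purines, at 247.0, 256.7 and 251.8 CPM in scrambled, 109.9, 119.9 and 104.2 with siLRWD1-5, and 199.4, 206.9 and 212.0 with siLRWD1-6. ATIC fell with siLRWD1-5 (log2 fold change -1.18, edgeR adjusted p = 2.1e-07) and with siLRWD1-6 (-0.29, edgeR adjusted p = 0.0086), the latter call being lost without siLRWD1-6 replicate 1 (-0.27). The other purine falls with siLRWD1-5, GART (-0.18) and PAICS (-0.20), passed narrowly and were lost in 11 and 8 of the 18 alternatives, which left ATIC as the 1 purine gene called without scrambled replicate 3, siLRWD1-5 replicate 2 or 3, or siLRWD1-6 replicate 3.

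**Figure D5:**
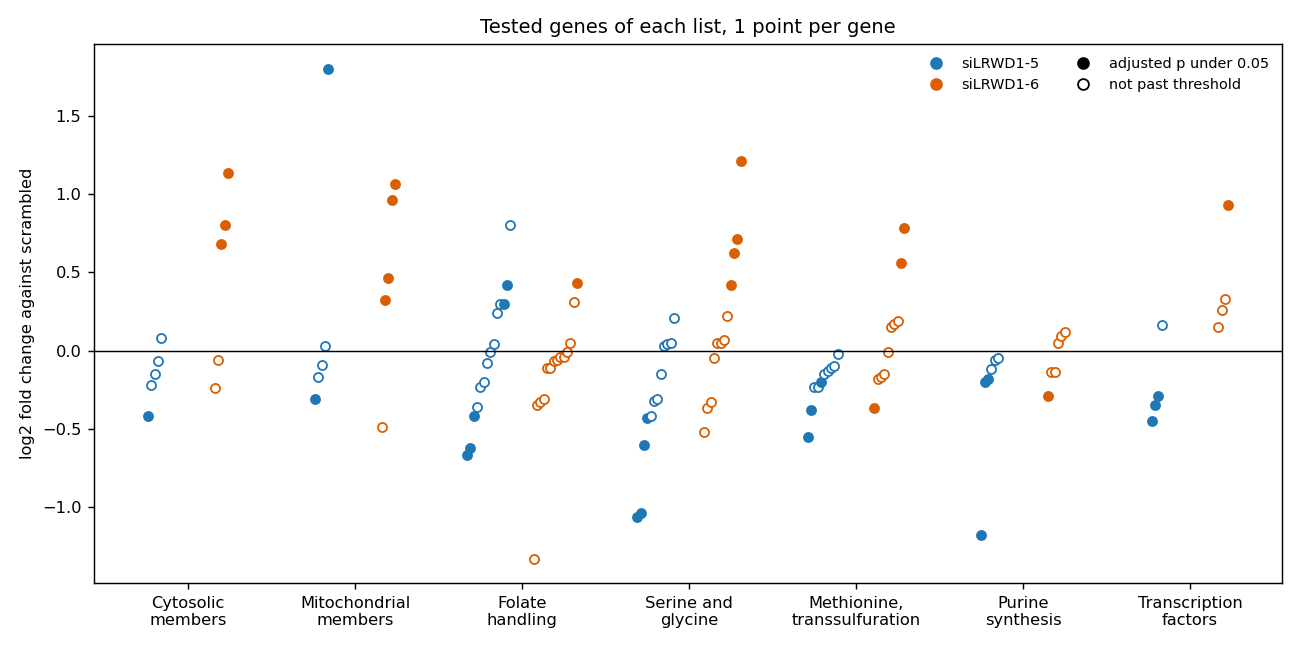
Log2 fold change against scrambled of every tested gene of the cytosolic and mitochondrial members, the 4 pathway lists and the transcription factors, with siLRWD1-5 (blue) and siLRWD1-6 (orange); filled points passed an adjusted p under 0.05, and points of a list are ordered by value. With siLRWD1-6 the filled points of the serine and glycine list are the 4 carriers between 0.42 and 1.21, and the lowest filled siLRWD1-5 point is ATIC at -1.18.

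Of 4 transcription factors known to act on these enzyme genes, ATF4 was 246.8, 217.9 and 242.1 CPM in scrambled, 178.4, 176.7 and 161.6 with siLRWD1-5, and 478.3, 454.4 and 416.5 with siLRWD1-6. The 3 groups did not overlap. ATF4 fell with siLRWD1-5 (log2 fold change -0.45, SE 0.07, edgeR adjusted p = 0.00056) and rose with siLRWD1-6 (0.93, SE 0.07, edgeR adjusted p = 1.3e-05). NFE2L2, which acts through antioxidant response elements, fell with siLRWD1-5 (-0.29, edgeR adjusted p = 0.008) and had a value of 0.15 with siLRWD1-6 (edgeR adjusted p = 0.19). CEBPB, a partner of ATF4, had values of -0.35 (edgeR adjusted p = 0.045) and 0.33 (edgeR adjusted p = 0.09), and its fall with siLRWD1-5 was lost in 11 of the 18 alternatives. MYC, which binds E-boxes, had values of 0.16 (edgeR adjusted p = 0.28) and 0.26 (edgeR adjusted p = 0.15). Without scrambled replicate 2 all 4 factors were called higher with siLRWD1-6 in edgeR, where 2115 of 13868 genes tested were. MYC was then also called higher with siLRWD1-5 (0.29). Between the siRNAs ATF4 (1.38), CEBPB (0.69) and NFE2L2 (0.44) were higher in siLRWD1-6. These are transcript levels, and the part of any of these factors in the members' changes was not tested.

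The Ewing sarcoma markers also moved between the groups, with 4 of 7 tested lower with siLRWD1-5, where 20.3% of all genes tested were. With siLRWD1-6, 1 of 7 was lower, where 7.78% of all genes were. In siLRWD1-6 against siLRWD1-5, 4 of 7 were higher, where 22.4% of all genes were. Once scrambled replicate 2 was left out, 2 markers were higher and 1 lower with siLRWD1-6, where 2115 and 1838 of 13868 genes tested were. Their summed level ranged from 588.5 to 695.3 CPM in scrambled, from 391.8 to 473.4 with siLRWD1-5 and from 528.2 to 578.2 with siLRWD1-6. The summed level of the 10 markers of other cell types stayed between 1.24 and 2.21 CPM in all groups, and CD3E and MS4A1 were at 0 in every library. The part of these shifts in the members' changes was not tested.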

How the data were processed

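Expression was measured in 9 libraries, 3 per siRNA. The authors deposited raw read counts by gene symbol in 1 table, without normalization. Per the submitters' processing notes it was made with bcl2fastq 1.8.4, TopHat2 2.0.10 and HTSeq 0.5.4p3 on hg19. No annotation, counting mode or strand setting is given in the sources used here, and per the labels the kit was TruSeq RNA v2, which does not mark strand.

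After filterByExpr and TMM scaling, edgeR 4.0.16 (robust quasi-likelihood, R 4.3.3) was fitted to all 9 libraries with group as the only term. P-values were adjusted over the 13648 genes tested (Benjamini-Hochberg), and calls need an adjusted p under 0.05. Standard errors (SE) come from the F statistic. In simulated counts for siLRWD1-6 against scrambled (13521 genes), 47.5% of changes of 0.5 and 86.9% of changes of 1 (log2) were recovered, and unchanged genes made up 5.7% of the calls. The simulated libraries shared a common mean per gene apart from the planted changes. They held no library that deviated over many genes as scrambled replicate 2 did, so these rates may differ in the real libraries.

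Exon lengths came from GENCODE v29 (GRCh38), by symbol, and start regions from RefSeq. Correlations used log2 of CPM plus 0.5. Deviations of same-numbered libraries from their group means correlated at 0.281, 0.404 and 0.126 (siLRWD1-5 and scrambled) and at 0.193, 0.247 and 0.106 (between the siRNAs), which pairs them, but at 0.312, 0.259 and 0.03 for siLRWD1-6 and scrambled. Besides the members, LRWD1 and the 4 transcription factors, up to 4 called genes per list and comparison with the smallest p were named, with genes among the 5 most like the members' mean. Some genes that this rule covers are not reported here. GCAT and ALDH1L1 were named after their values were seen. Members and lists were chosen with earlier results of these data known. The alternatives, 18 per comparison, were RLE size factors, library size alone, no filter on low counts, a minimum of 1 CPM in 3 libraries, limma-voom (limma 3.58.1), DESeq2 1.42.0, the replicate block, only the groups compared, replicates 1 and 3 only, and each of the 9 libraries left out.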

Additional observations from a re-analysis of the deposited data

How the results depend on the processing

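Of the members' log2 fold changes under 18 alternatives per comparison, 499 kept their direction and side of the threshold, 19 lost a call, 13 gained one and 9 changed sign. None of the sign changes touched a value that had passed the threshold. When 1 library was left out, SHMT1 ranged from -0.23 to 0.09 with siLRWD1-5, from -0.21 to 0.10 with siLRWD1-6 and from -0.03 to 0.07 between the siRNAs. SHMT2 ranged from -0.02 to 0.06 and MTHFD2L from -0.45 to 0.11 with siLRWD1-5. SHMT1 was also -0.06 between the siRNAs with library size alone.

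The number of members lower with siLRWD1-5 was 2, 5 with replicates 1 and 3 only, and 1 to 6 when 1 library was left out. In the same order, 2765, 3173 and 2233 to 3464 of all genes were lower. With siLRWD1-6 the members higher ranged from 4 to 7 and those lower from 0 to 1 when 1 library was left out, the 4 arising without siLRWD1-6 replicate 1 or 2, and replicates 1 and 3 only gave 1 lower. Between the siRNAs the 1 member lower became 0 in limma-voom and 0 to 1 on leaving out a library, where 2863 and 2197 to 3597 of all genes were lower. Over all genes, siLRWD1-6 called 1203 higher and 1062 lower. With replicates 1 and 3 only these were 1933 and 1646, with only the groups compared 696 were lower, and leaving out a library gave 702 to 2115 and 546 to 1838, the top without scrambled replicate 2 and the bottom without siLRWD1-6 replicate 1. The cause was not tested. With the replicate number as a block, siLRWD1-6 gave 1472 higher and 1343 lower genes and 1 member lower (MTHFD1, -0.23), and the block changed no other member's call in any comparison.

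Changes in the 4 enzyme ratios kept their direction where the libraries did not overlap. Depth limits MTHFD2L and ALDH1L2, at 15 to 111 reads per library.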
